A study of Mus musculus with 7 samples.

Results

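The genes described here are 27 that encode enzymes of sterol biosynthesis after acetyl-CoA, the sterol regulatory element binding proteins (SREBPs) with the proteins that hold or cut them, and the sterol carrier Stard4. They were taken by symbol from a deposited table of 16476 genes, with a mean of at least 5 normalized counts over the libraries required. All 27 named genes met that minimum, and all 27 also met the mean of 10 that was required for testing. RNA came from bronchoalveolar lavage, that is, cells washed out of the airspaces, of mice of the C57BL/6 strain; lipopolysaccharide (LPS) had been put into the trachea 3 days earlier. The 4 control libraries were from mice labelled LysM Cre, which carry Cre recombinase in the lysozyme M locus of myeloid cells. The 3 knockout libraries were from mice labelled Netrin1loxp/loxp LysM Cre, which by that label carry LysM Cre as well and floxed alleles of Ntn1, the gene of the secreted guidance protein netrin-1. Both groups received LPS, and antibodies were used to deplete neutrophils from both before RNA was taken. The sources used here give neither ages nor how many mice stand behind a library, so the p-values below rest on the spread from library to library, part of which may be technical. Cre acts in myeloid cells, while the lavage also held natural killer and T cells, so the RNA of a library is a mixture of deleted and undeleted cells.

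Cholesterol is built from acetyl-CoA through mevalonate, isopentenyl diphosphate, squalene and lanosterol, and side branches supply prenyl groups for proteins and ubiquinone. When sterol in the endoplasmic reticulum is low, Scap carries the SREBPs to the Golgi, where the site-1 and site-2 proteases (Mbtps1 and Mbtps2) release the part that enters the nucleus and switches on the genes of the pathway. When sterol is high, Insig proteins hold Scap back. In macrophages this route is balanced against cholesterol taken up from surfactant and dying cells, whose oxidised derivatives activate the liver X receptors (LXRs) and export through Abca1.

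The knockout libraries held more RNA for 7 of the 27 genes and less for 1, at an adjusted p under 0.05 (limma over 12963 genes, Benjamini-Hochberg). The genes that rose were Pmvk, Idi1, Fdft1, Lss, Ebp and Sc5d, which are enzymes, and Srebf2, the SREBP that chiefly drives sterol genes; Mvd, an enzyme between Pmvk and Idi1, fell. Of all genes tested, 10.4% were called higher and 11.3% lower, against 25.9% and 3.7% of these 27. The differences were modest, since 3 of 27 reached 0.5 in absolute log2 difference and 0 reached 1. Estimates lay above 0 for 22 of the 27 (81.5%, against 51.9% of all genes tested), and the median log2 difference was 0.31 against 0.01 over all genes. The groups did not overlap, with knockouts higher, for 8 of the 27 genes, and with knockouts lower for 1; the background was 17.4% and 16.3% of all genes. The authors' deposited table had an adjusted p under 0.05 for 8 of the 27, and these were the same 8 genes. Calls among the 27 varied with the library left out. Without control replicate 2 or knockout replicate 2, 2 genes were called higher. Without control replicate 1, control replicate 4 or knockout replicate 1, 3 were. Without control replicate 3, 7 were, with Stard4 in place of Srebf2, and without knockout replicate 3, 6 were. Over all genes the share called higher fell too, from 10.4% to between 5.36% (without knockout replicate 2) and 9.03% (without knockout replicate 1). Fewer calls were thus not confined to these 27. Mvd lost its call in 5 of the 7 fits with 1 library left out, keeping it where control replicate 4 or knockout replicate 1 was the library left out.

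**Figure D1:**
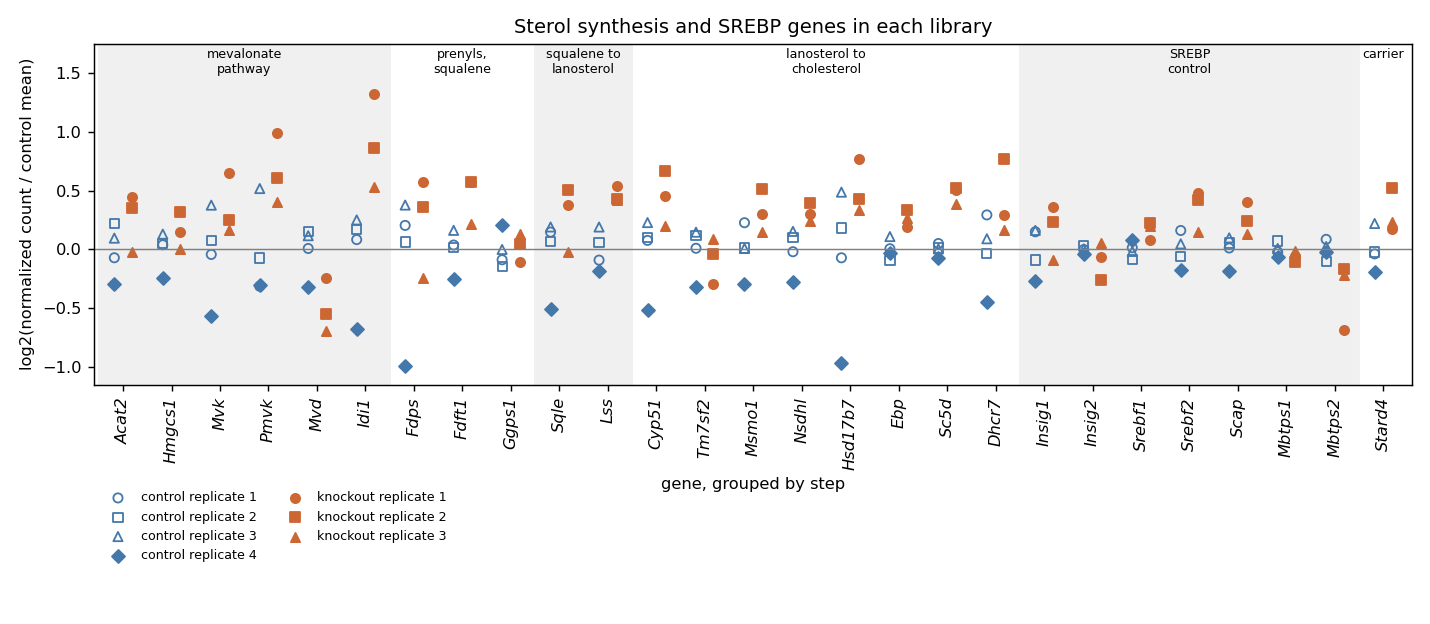
Normalized count of each of the 27 genes in each library, divided by the mean of the 4 controls, on a log2 axis; genes are grouped by step, blue symbols are control libraries and orange symbols knockout libraries. The filled blue diamond, control replicate 4, was the lowest of the 7 libraries for 19 of the 27 genes, and knockout replicates 1 and 2 were the highest for 11 and 10.

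The libraries held between 9903284 and 13353733 reads, with the fewest in control replicate 4. Reads of the 27 genes together numbered 8021 to 13891 in controls and 13413 to 14433 in knockouts. In replicate order, which is used for all lists of values here, Ntn1 had 1, 4, 9 and 3 reads in controls and 1, 0 and 1 in knockouts, too few to check the labels by. The libraries of the control group were not alike in Lyz2, at 76927 and 118781 normalized counts in replicates 1 and 4 and at 770.1 and 721.3 in replicates 2 and 3. The knockouts had 935.9, 1052 and 909.7 normalized counts of Lyz2, near control replicates 2 and 3 and far below replicates 1 and 4. Lyz2 is the gene of lysozyme M, whose locus carries Cre, so this gene's level did not follow the labels alike in all controls, and the labels do not give the number of Cre copies. Of 18 markers of resident alveolar macrophages 17 were in the table, and none of these was at 0 in all libraries. By limma 0 of the 17 was called in either direction, and 1 was higher at an unadjusted p under 0.05; 16 of 17 estimates lay above 0, with a median log2 difference of 0.28. Their summed normalized count was 101698, 89614, 81949 and 62263 in controls and 78492, 135897 and 86759 in knockouts, and Chil3 alone made up between 75.2% and 84.5% of it. Without Chil3 the other 16 summed to 22708, 19096, 14160 and 12269 in controls and 12140, 30002 and 21485 in knockouts. Marker by marker, knockout replicate 1 held the lowest of the 7 values for 11 of 17 and control replicate 4 for 4, while knockout replicate 2 held the highest for 14. For the sterol genes, control replicate 4 was low and knockout replicates 1 and 2 were both high. The part of this cell type in the sterol genes' difference was not tested. In bulk RNA, fewer cells of a type and less RNA per cell cannot be told apart.

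Markers of some other cell types differed between the groups. The counts called below stand against 10.4% called higher and 11.3% called lower of all genes tested. Natural killer cell markers were higher for 13 of 14 genes, with sums between 17429 and 24593 in controls and between 62459 and 67583 in knockouts. Monocyte and recruited macrophage markers were lower for 9 of 16 and higher for 2, with sums of 58627 to 75864 in controls and 37781 to 54384 in knockouts. Neutrophil markers were higher for 7 of 15, and their sum was 32798 to 43674 in controls and 48888 to 132134 in knockouts, with the top value in knockout replicate 1. Markers of dividing cells were higher for 8 of 17, with sums of 11076 to 14023 in controls and 11668, 18341 and 17335 in knockouts. Lung epithelial markers were higher for 8 of 13 tested, at summed counts of 1166 to 1287 in controls and 1570 to 2238 in knockouts. Dendritic cell markers were higher for 3 of 9 (1427 to 2338 against 2866 to 5386). T cell markers were higher for 3 and lower for 1 of 14 (10775 to 12039 against 9712 to 13522), and B cell markers higher for 1 and lower for 1 of 6 tested (651 to 894.1 against 656.7 to 1061). Erythroid markers were called by limma for 0 of 8, also at an unadjusted p under 0.05, with sums of 1260 to 26501 in controls and 7011 to 138269 in knockouts. No marker in the table was at 0 in every library, and the part of these cell types in the sterol genes' difference was not tested.

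Promoter stretches of 6 of the called genes, and of Hmgcs1, which was not called, are shown to put the letters that SREBP and its partner NF-Y are known to read beside the measurements. RefSeq windows (GRCm38.p6) of 250 bases before to 50 after the start were at hand for 23 of the 27 genes. There was none for Fdft1, which was called, or for Fdps, Sqle and Stard4, so these 4 were not searched. The core of the sterol regulatory element, TCACNCCAC, was searched on both strands and was found in 1 of the 23 windows, that of Hmgcs1, and in 1.22% of the windows of 27025 genes. The NF-Y letters CCAAT stood in 18 of the 23 (78.3%) against 38% of all windows, and in 2 or more copies in 10 of the 23 (43.5%) against 12.1%. The GC box GGGCGG was in 18 of the 23 (78.3%) against 35.9%, and the E-box CACGTG in 4 (Hsd17b7, Insig1, Sc5d and Scap) against 7.24% of all windows. Matches of different motifs were counted separately and can share letters, and a match describes the window without showing a bound site. Only the exact letters were searched, so a variant of the sterol element, or one outside the window, was not counted. The windows of the 27025 genes were not limited to the 12963 genes tested. Shares among expressed genes alone were not counted, so the difference from all windows may not be particular to sterol genes. In the stretches below, read 5′ to 3′ on the gene's strand and ending before the annotated transcript, capitals mark CCAAT, its reverse complement, and the sterol element core.
Hmgcs1, chr13:119690171-119690350, + strand, a synthase early in the pathway, with 3 marked sites: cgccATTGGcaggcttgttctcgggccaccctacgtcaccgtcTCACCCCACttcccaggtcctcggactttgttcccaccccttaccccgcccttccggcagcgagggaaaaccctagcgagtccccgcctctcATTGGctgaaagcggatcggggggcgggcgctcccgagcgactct
Srebf2, chr15:82147019-82147180, + strand, with 1 marked site: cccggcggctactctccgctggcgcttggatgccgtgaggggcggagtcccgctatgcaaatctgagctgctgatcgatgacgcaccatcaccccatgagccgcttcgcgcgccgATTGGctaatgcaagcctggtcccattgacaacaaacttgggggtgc
Lss, chr10:76531408-76531587, + strand, with 1 marked site: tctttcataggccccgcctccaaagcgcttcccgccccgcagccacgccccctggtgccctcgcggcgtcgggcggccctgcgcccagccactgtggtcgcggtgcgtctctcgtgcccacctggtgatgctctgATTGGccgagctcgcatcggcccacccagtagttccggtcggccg
Sc5d, chr9:42264301-42264480, - strand, with 1 marked site: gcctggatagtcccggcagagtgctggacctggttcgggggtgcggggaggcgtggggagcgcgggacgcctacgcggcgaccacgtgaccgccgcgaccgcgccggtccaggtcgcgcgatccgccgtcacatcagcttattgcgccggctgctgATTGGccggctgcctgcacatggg
Ebp, chrX:8193513-8193692, - strand, with 2 marked sites: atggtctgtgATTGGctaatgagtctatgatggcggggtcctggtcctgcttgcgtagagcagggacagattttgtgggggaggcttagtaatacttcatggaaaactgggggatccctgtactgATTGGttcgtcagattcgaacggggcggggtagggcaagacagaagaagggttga
Pmvk, chr3:89454361-89454540, + strand, with 1 marked site: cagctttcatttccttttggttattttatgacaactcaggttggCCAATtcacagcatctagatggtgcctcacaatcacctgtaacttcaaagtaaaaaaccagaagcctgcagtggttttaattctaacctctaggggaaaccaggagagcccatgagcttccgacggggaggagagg
Mvd, chr8:122443423-122443602, - strand, with 2 marked sites: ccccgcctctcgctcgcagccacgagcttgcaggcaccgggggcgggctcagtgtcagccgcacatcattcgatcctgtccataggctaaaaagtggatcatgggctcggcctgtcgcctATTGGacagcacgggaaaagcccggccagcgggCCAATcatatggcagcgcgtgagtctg
Only stretches with a marked site were shown, so it is no result that all 7 hold CCAAT, that of Mvd, which fell, included. Hmgcs1, the gene with the sterol element core, had a log2 difference of 0.17 that was not called. Idi1 had CCAAT at 45 and 14 bases before its RefSeq start, inside a transcript annotated by GENCODE, and its stretch is therefore not shown.

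In the mevalonate segment, Acat2 and Hmgcs1 join acetyl-CoA units, Mvk, Pmvk and Mvd phosphorylate mevalonate and remove a carboxyl group to give isopentenyl diphosphate, and Idi1 turns that into its isomer. Of the 6 genes, 2 rose and 1 fell. Idi1 (ENSMUSG00000058258, GRCm38 chromosome 13, 8885501 to 8892451, + strand) had the widest difference of the 27. It had 91.4, 96.9, 102.7 and 53.9 normalized counts in controls and 216, 156.7 and 124.7 in knockouts. Every knockout stood above every control, with control replicate 4 well below the other controls. Controls averaged 86.2 ± 22 (SD, n = 4) and knockouts 165.8 ± 46.3 (SD, n = 3), a log2 difference of 0.94 (SE 0.26, adjusted p = 0.0318), and with any 1 library left out the estimate lay between 0.73 and 1.13 and was called in 3 of 7 fits. Of the 50-base words in its annotated transcripts 25.3% also occur in other genes, most often Gm13502, so its count is uncertain.

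Pmvk (ENSMUSG00000027952, chromosome 3, 89454541 to 89469013, + strand) stood at 165.5, 195.7, 294.7 and 166.8 in controls and at 409.7, 314.4 and 272.8 in knockouts. The groups overlapped, since knockout replicate 3 lay below control replicate 3. The log2 difference was 0.71 (SE 0.22, adjusted p = 0.0469), and Pmvk was the 1 gene of the 8 that edgeR and limma-voom on the recovered reads did not call. Mvd (ENSMUSG00000006517, chromosome 8, 122433601 to 122443422, - strand), which acts on the product of Pmvk, went the other way. It had 852.1, 940.3, 918.6 and 677.1 normalized counts in controls and 716.9, 578.8 and 522.1 in knockouts. Control replicate 4 lay below knockout replicate 1, so the groups overlapped here too. Controls averaged 847 ± 119.3 (SD, n = 4) and knockouts 606 ± 100.2 (SD, n = 3), a log2 difference of -0.48 (SE 0.14, adjusted p = 0.0395). Without control replicate 4 the estimate was -0.59, still called.

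Acat2, Hmgcs1 and Mvk were not called. Hmgcs1 had means of 858.4 ± 93.6 (SD, n = 4) and 962.0 ± 106.9 (SD, n = 3) and a log2 difference of 0.17 (95% interval -0.08 to 0.41). Mvk had 50.2 to 96.5 normalized counts in controls and 83.1 to 116.6 in knockouts, with a log2 difference of 0.39 (95% interval -0.12 to 0.90). Acat2 had a log2 difference of 0.27 (95% interval -0.10 to 0.64), and 39.1% of its words are shared with the neighbouring copy Acat3. In each of these 3 genes control replicate 4 held the lowest value of the 7 libraries.

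In the prenyl segment, Fdps and Ggps1 lengthen the chains and Fdft1 joins a pair of farnesyl groups to squalene, the step that commits carbon to sterols. Fdft1 (ENSMUSG00000021273, chromosome 14, 63145150 to 63179578, - strand) was the 1 of the 3 that rose. Its normalized counts were 347.3, 342.5, 378.8 and 284.6 in controls and 504.0, 502.9 and 393.0 in knockouts. The groups did not overlap, although knockout replicate 3 lay close to control replicate 3. The log2 difference was 0.46 (SE 0.13, adjusted p = 0.0317), called in 2 of the 7 fits with 1 library left out. The end of Fdft1 shares 774 exon bases with Ctsb on the opposite strand, a gene at 34293 ± 2861 (SD, n = 4) normalized counts in controls; the sources used here do not say whether counting used strand. Ctsb moved the other way, to 22338 ± 973.0 (SD, n = 3) in knockouts (log2 difference -0.62, adjusted p = 0.00547).

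Ggps1, which makes the geranylgeranyl groups of small GTPases and lies outside the sterol branch, had the estimate nearest 0 of the 27 (0.03, 95% interval -0.20 to 0.26). It was also the only one of the 27 whose highest value was in control replicate 4 (522.9 normalized counts, against 408.0 to 452.2 in the other controls and 418.8 to 495.0 in knockouts). Fdps was read 6 to 22 times per library, and its log2 difference of 0.29 had an interval of -0.53 to 1.11, so a rise of 2-fold could not be told from none at this depth. Of its words 26.2% occur in other genes, chiefly Gm43738, and its low count is therefore uncertain.

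Squalene is oxidised by Sqle and closed into lanosterol by Lss. Lss (ENSMUSG00000033105, chromosome 10, 76531588 to 76557138, + strand) rose. Its normalized counts were 251.9, 278.9, 306.2 and 235.7 in controls and 389.4, 360.6 and 358.6 in knockouts. The 3 knockouts lay close together and above every control. Controls averaged 268.2 ± 31 (SD, n = 4) and knockouts 369.5 ± 17.2 (SD, n = 3), a 1.38-fold difference (log2 0.47, SE 0.10, adjusted p = 0.0149), and it was called in 7 of 7 fits with 1 library left out. Sqle stood at 225.7 to 366.4 in controls and 315.3 to 456.7 in knockouts, and its log2 difference of 0.31 (95% interval -0.11 to 0.74) was not called.

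The 8 enzymes from lanosterol to cholesterol strip methyl groups, reduce and shift double bonds; 2 rose, 0 fell and 7 estimates lay above 0. Sc5d (ENSMUSG00000032018, chromosome 9, 42251595 to 42264256, - strand), the lathosterol desaturase, had the smallest p of the 27. Its normalized counts were 443.8, 432.5, 430.1 and 407.5 in controls and 609.4, 615.3 and 561.9 in knockouts. Both groups were tight, and the lowest knockout lay far above the highest control. Controls averaged 428.5 ± 15.2 (SD, n = 4) and knockouts 595.6 ± 29.3 (SD, n = 3), a log2 difference of 0.47 (SE 0.07, adjusted p = 0.00302). It was called in all 21 alternative fits, with estimates from 0.45 to 0.51 and adjusted p from 1.87e-05 to 0.0467. No other gene of the 27 was called in all of them.

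Ebp (ENSMUSG00000031168, chromosome X, 8185329 to 8193512, - strand), the isomerase that precedes Sc5d, stood at 513.9, 480.4, 552.2 and 500.3 in controls and at 585.1, 645.2 and 617.9 in knockouts. The groups did not overlap, and the difference was small (log2 0.27, SE 0.07, adjusted p = 0.0349). It was called in 2 of the 7 fits with 1 library left out. Nsdhl, also on chromosome X and part of the demethylation of lanosterol, had no overlap either (159.3 to 214.2 against 227.6 to 252.9 normalized counts) but was not called (log2 0.32, SE 0.12, adjusted p = 0.0833).

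Cyp51, which removes the methyl group at carbon 14, and Dhcr7, the last reductase, had estimates close to that of Sc5d with wider errors. Cyp51 stood at 513.9, 523.5, 570.8 and 339.8 in controls and 666.2, 775.9 and 559.2 in knockouts, a log2 difference of 0.47 (SE 0.18, adjusted p = 0.0982). Dhcr7 stood at 314.8, 250.5, 273.5 and 188.1 in controls and 315.4, 437.5 and 287.3 in knockouts, a log2 difference of 0.43 (SE 0.19, adjusted p = 0.143). In both, control replicate 4 was low and knockout replicate 2 high. Hsd17b7 ranged from 82.8 to 227.4 in controls and 205.1 to 276.8 in knockouts (log2 0.60, 95% interval -0.08 to 1.28), and Msmo1 had a log2 difference of 0.33 (95% interval 0.04 to 0.63, adjusted p = 0.0993). Tm7sf2, a reductase whose function overlaps with that of another protein of the nuclear envelope, was low (33.9 to 46.9 normalized counts over the 7 libraries), with a log2 difference of -0.07 (95% interval -0.48 to 0.35). In its case 9.87% of words are shared with Vps51, which overlaps it on the same strand.

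**Figure D2:**
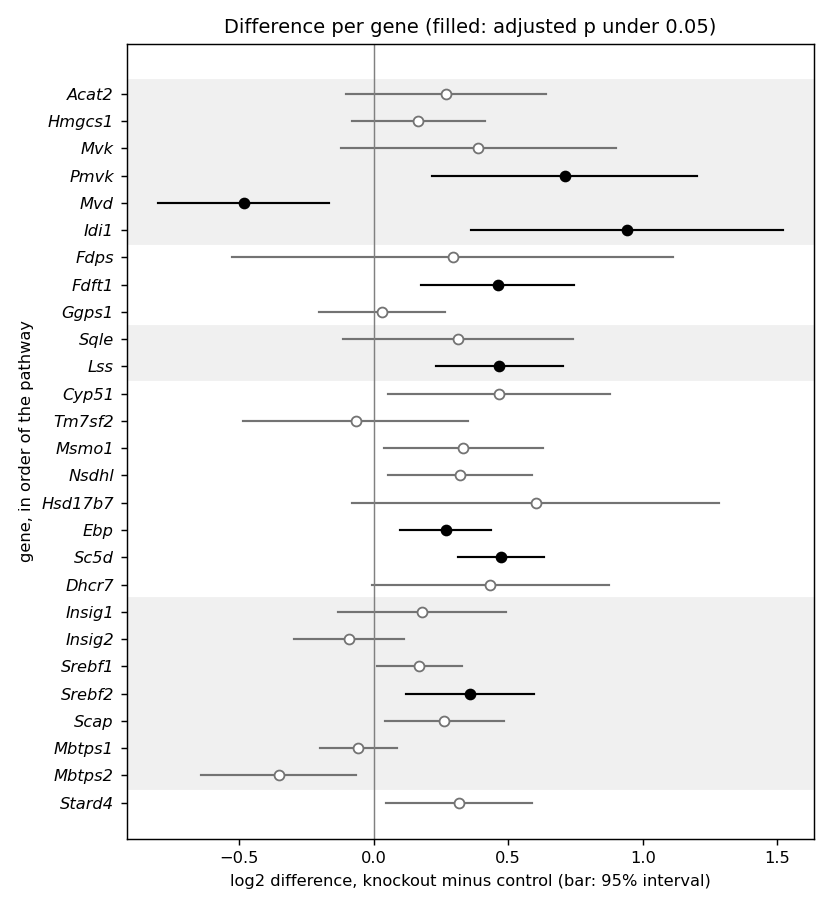
Log2 difference of knockout minus control for each gene in pathway order (limma, 4 control and 3 knockout libraries), with 95% intervals as bars and filled points where the adjusted p was under 0.05. The 8 filled points run from -0.48 for Mvd to 0.94 for Idi1, and 22 of the 27 points lie above 0.

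Among the SREBP genes, Srebf2 rose and the other 6 were not called. Srebf2 (ENSMUSG00000022463, chromosome 15, 82147181 to 82205379, + strand) had 1374, 1180, 1270 and 1090 normalized counts in controls and 1716, 1650 and 1366 in knockouts. Knockout replicate 3 fell within the controls, just under control replicate 1. Controls averaged 1228 ± 121.9 (SD, n = 4) and knockouts 1577 ± 185.9 (SD, n = 3), a log2 difference of 0.36 (SE 0.11, adjusted p = 0.0409), called in 2 of the 7 fits with 1 library left out. Srebf1, which drives fatty acid genes more than sterol genes, stood at 727.2, 679.1, 711.5 and 761.2 in controls and 761.5, 842.3 and 826.6 in knockouts. Its groups met almost without a gap (log2 0.17, SE 0.07, adjusted p = 0.114). The table counts whole genes and does not separate the Srebf1 isoforms.

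Scap, the escort of the SREBPs, had 385.9, 397.3, 409.7 and 337.3 normalized counts in controls and 507.0, 451.9 and 419.2 in knockouts. All 3 knockouts lay above all 4 controls, and the log2 difference of 0.26 (SE 0.10, adjusted p = 0.0868) was not called. Insig1, the sterol-responsive retention protein, had 647.0, 548.0, 652.2 and 484.0 in controls and 750.4, 683.6 and 548.3 in knockouts. The groups overlapped, and the log2 difference was 0.18 (95% interval -0.13 to 0.49). Insig2, its paralog, had 334.1, 341.5, 335.4 and 326.0 in controls and 319.4, 278.8 and 346.9 in knockouts. It was steady among controls, and its log2 difference was -0.09 (95% interval -0.29 to 0.11).

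The site-1 protease gene Mbtps1 had 1033 to 1136 normalized counts in controls and 1001 to 1073 in knockouts (log2 -0.06, 95% interval -0.20 to 0.09). The site-2 protease gene Mbtps2 was the gene of the 27 whose groups did not overlap with knockouts lower. It stood at 477.3, 419.8, 457.5 and 443.9 in controls and at 279.9, 400.0 and 387.5 in knockouts, with knockout replicate 1 apart from the others. The log2 difference of -0.35 (SE 0.13, adjusted p = 0.0774) was not called, and 27.7% of its words lie in Yy2, which overlaps it on the same strand. Stard4, which moves sterol between membranes and is itself an SREBP target, had a log2 difference of 0.32 (SE 0.12, adjusted p = 0.0907); it was called without control replicate 3 (adjusted p = 0.0470).

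Per kilobase of annotated exon, Mvd had the highest level of the 27 in controls (456 normalized counts per kilobase), followed by Ebp (221.5), Insig1 (188.4), Hmgcs1 (186.8) and Srebf2 (171.0). In knockouts Mvd was at 326 and Ebp at 266.7 on the same scale, with Srebf2 at 219.5. Fdps (3.56) and Tm7sf2 (9.62) were lowest in controls. Idi1, at 24.6 per kilobase in controls, was close to Lss there (24.9). In knockouts Idi1 was at 47.3 and Lss at 34.3. The divisor was the merged length of all annotated exons, 10787 bases for Lss and 3505 for Idi1, which need not be the length of 1 transcript. Idi1 and Fdps also share 25.3% and 26.2% of their words with other genes, so levels of different genes compare only roughly.

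The libraries were not evenly spread within the groups. Control replicate 4 held the lowest of the 7 values for 19 of the 27 genes (70.4%), while it did so for 13.2% of all genes tested. Knockout replicates 1 and 2 held the highest value for 11 and 10 of the 27 (40.7% and 37%), against 23.5% and 15.9% of all genes. Relative to the control mean of each gene, the median over the 19 enzymes was 0.02, 0.09, 0.16 and -0.28 on the log2 scale in controls and 0.46, 0.43 and 0.20 in knockouts. Knockout replicate 3 thus lay near control replicate 3. Over all genes tested the same median was between -0.001 and 0.02 in every library. Control replicates 1 and 4, alike in their high Lyz2, were thus unlike in the enzymes.

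The median log2 difference of the 27 genes was 0.22 without control replicate 4, 0.27 and 0.23 without knockout replicates 1 and 2, and 0.41 without knockout replicate 3. Over all genes the median was between 0.01 and 0.02 in these fits. With control replicates 1 and 4 both left out the median of the 27 was 0.18 and Sc5d alone was called higher, with 4.81% of all genes called higher and Mvd still lower. With replicates 2 and 3 left out instead the median was 0.42, with Pmvk, Sc5d and Lss called higher, Mvd at -0.34 no longer called and 4.82% of all genes called higher.

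**Figure D3:**
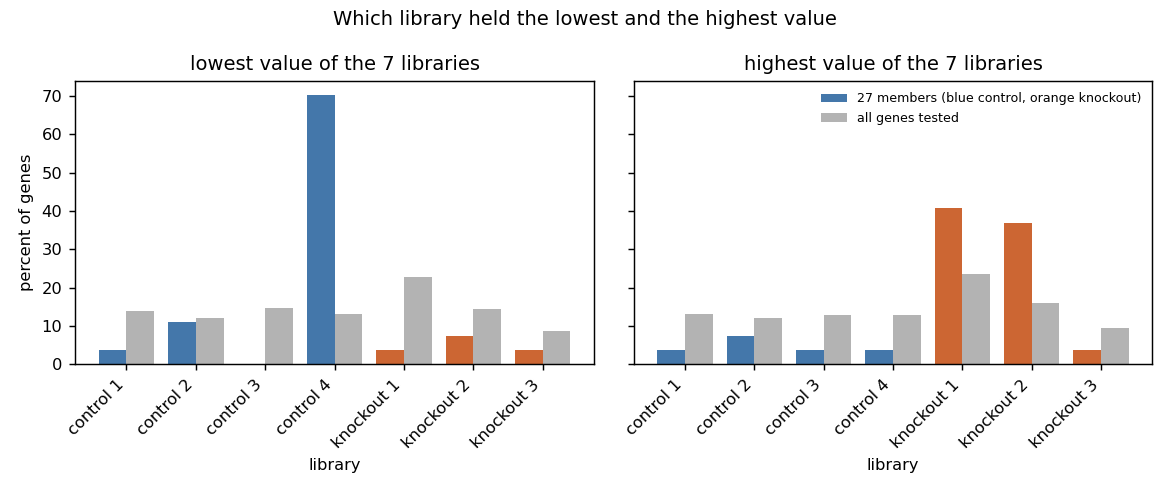
Percent of genes whose lowest (left) or highest (right) normalized count of 7 fell in each library, for the 27 genes (coloured) and for all 12963 genes tested (grey). Control replicate 4 held the lowest value for 70.4% of the 27 genes against 13.2% of all genes.

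**Figure D4:**
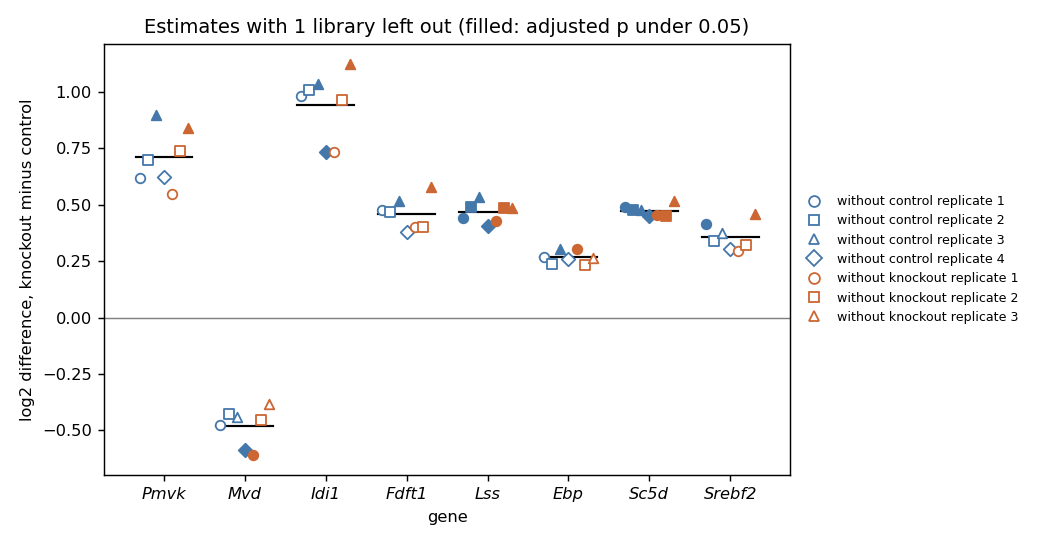
Log2 difference (knockout minus control) of the 8 called genes with all libraries (black line) and with each library left out in turn (symbols, blue for a control and orange for a knockout left out, filled where the adjusted p was under 0.05). Sc5d and Lss stayed called in 7 of 7 fits, and no estimate changed sign.

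The remaining genes around the pathway were read from lists, whose counts stand against 10.4% called higher and 11.3% called lower of all genes tested. Of 10 tested further enzymes and targets of the sterol arm, 4 rose and 1 fell (median log2 difference 0.18). Lbr, a nuclear envelope protein with sterol reductase activity, averaged 855 ± 26 (SD, n = 4) normalized counts in controls and 1342 ± 97 (SD, n = 3) in knockouts (log2 0.65, adjusted p = 0.000869). Acss2 and Aacs, which make acetyl-CoA and acetoacetyl-CoA, rose by 0.80 and 0.37 on the log2 scale (adjusted p = 0.0195 and 0.0206). Fabp5, a fatty acid carrier, fell by 0.79 (adjusted p = 0.00987). Of 12 tested genes of the fatty acid arm of SREBP, 5 rose and 1 fell (median 0.38). The desaturase Scd1, at 63.8 ± 18.1 (SD, n = 4) and 192.8 ± 23.7 (SD, n = 3), and the elongases Elovl6 and Elovl5 had the smallest p among those that rose (log2 1.62, 0.89 and 0.41). Acaca, an acetyl-CoA carboxylase, fell by 0.31 (adjusted p = 0.0408).

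Cholesterol disposal was covered by lists on oxysterols and on release and esterification, again beside 10.4% higher and 11.3% lower of all genes tested. Of 11 tested oxysterol and LXR genes, 5 fell and 0 rose by limma (2 were higher at an unadjusted p under 0.05), with a median log2 difference of -0.45. The exporter Abca1 fell by 1.46 on the log2 scale (adjusted p = 0.00204) and the lipoprotein gene Apoe by 2.65 (adjusted p = 0.00399). Pltp, a phospholipid carrier, fell by 0.67 (adjusted p = 0.0163), and Nr1h3 and Cyp27a1, the genes of LXR alpha and of an enzyme that makes an oxysterol, by 0.88 and 1.13. Apoe is also on the list of monocyte and recruited macrophage markers, of which 9 of 16 fell. Of 13 genes of endosomal cholesterol release and esterification, 2 rose and 5 fell (median -0.14). Soat1, which esterifies cholesterol, averaged 6415 ± 432.2 (SD, n = 4) normalized counts in controls and 4028 ± 297 (SD, n = 3) in knockouts (log2 -0.67, adjusted p = 0.00153), and Npc1 and Gramd1b, which pass cholesterol on from lysosomes and the plasma membrane, fell by 0.53 and 0.54. Gramd1a and Gramd1c, of the same family as Gramd1b, rose by 0.51 and 1.12.

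Lists of protein turnover and of isoprenoid use were also counted, against the same 10.4% higher and 11.3% lower of all genes. Of 17 genes of sterol-regulated degradation and SREBP accessory factors, 1 rose (Trim21, 0.38) and 1 fell (Erlin1, by 0.34), with a median of 0.03. Of 13 genes that use isoprenoids, 1 rose, Coq2 of ubiquinone synthesis (0.38, adjusted p = 0.0258) (median of the list -0.06); 1 was lower at an unadjusted p under 0.05 and 0 fell.

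**Figure D5:**
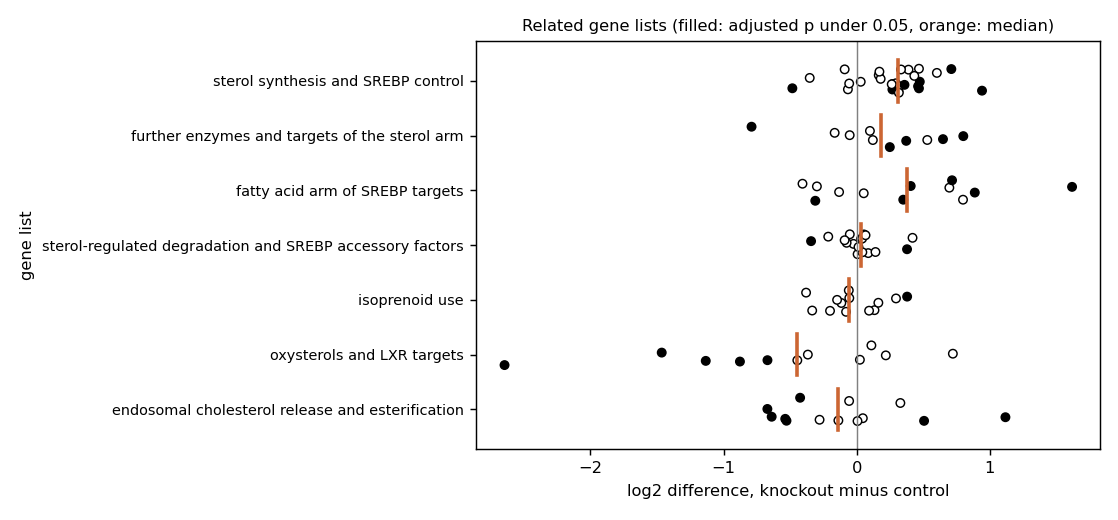
Log2 difference (knockout minus control) of each tested gene in the sterol and SREBP set and in 6 related lists; points are genes, filled where the adjusted p was under 0.05, and orange lines are medians. The medians run from 0.38 for the fatty acid arm to -0.45 for the oxysterol and LXR list.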

How the data were processed

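RNA of 7 bronchoalveolar lavage samples was sequenced from KAPA mRNA libraries, per the labels' protocols. The submitters' processing notes name cutadapt 1.15, STAR 2.5.3a, HTSeq, DESeq2 and the build GRCm38; the sources used here give no strand setting or annotation. The authors deposited 1 table whose signal columns, 1 for each library, are gene read counts scaled by a size factor. The same table, per the file headers, has columns for the authors' log2 fold change, a test score, its p-value and the p-value adjusted for all genes. Since 100% of values were whole multiples of 1 step per library (within 0.01), reads were recovered by division. A read count of 0 allows up to 3 reads, and such floors cover counting error only.

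limma 3.58.1 (R 4.3.3, eBayes with trend) was fitted to log2(normalized count + 1) of the 12963 genes with a mean of at least 10, with Benjamini-Hochberg adjustment over all of them and calls at an adjusted p under 0.05. The pseudocount makes fold changes of low genes too small. Alternatives were other scalings, pseudocounts and filters, limma-voom, edgeR 4.0.16 and DESeq2 1.42.0 run from recovered reads, replicate blocks, and libraries left out. edgeR's quasi-likelihood test called 1365 genes higher and 1497 lower. The scripts were tested on simulated data with few changed genes, of which 44.4% were called at 1.5-fold and 73.7% at 2-fold. A gene that was not called was therefore not shown to be unchanged.

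The 27 genes and all lists were chosen with earlier results of these data known. All 27 are described; of related lists, at least the genes with the smallest p, up to 3 per direction, are named. Positions and exon lengths came from GENCODE M21 on GRCm38 (99.81% of identifiers matched), and promoter windows from RefSeq. Shared words were counted over 50-base stretches of annotated transcripts. In 0 of 27 genes did a control library stand apart from the other controls by Dixon's test. With 4 values this test needs a very wide gap, and it takes 1 gene at a time. It therefore could not show that control replicate 4 was the lowest library for 19 of the 27 genes.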

Additional observations from a re-analysis of the deposited data

How the results depend on the processing

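Among the 27 genes, the 8 calls held under other scalings, pseudocounts and filters and with DESeq2; edgeR's quasi-likelihood test and limma-voom called 6 higher and 1 lower, without Pmvk. With 1 library left out, 2 to 7 of the 27 were called higher and 0 to 1 lower, among 695 to 1172 genes higher and 820 to 1303 lower over all genes. Without both control replicates 1 and 4, 1 of the 27 was called higher, among 624 genes higher and 567 lower. Without both control replicates 2 and 3, 3 of the 27 were called higher and 0 lower, among 622 and 620 genes.

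Over all genes tested, same-numbered deviations from the group means correlated at -0.229, -0.0253 and -0.188 by title. By description they correlated at -0.0768, -0.285 and 0.0762. Libraries with different title numbers correlated at -0.285 to 0.348, so these values cannot decide whether the numbers pair the libraries. Each block fit loses the 1 control without a same-numbered knockout. With a replicate block by title number, which gives the estimates obtained without control replicate 4, 1 of the 27 was called higher (Sc5d) and 0 lower, among 424 genes higher and 382 lower; leaving out control replicate 4 with no block gave 3 and 1, among 898 and 904. With a replicate block by description number, which likewise drops control replicate 1, 591 and 605 genes were called, and 7 and 1 of the 27, but not the same genes: Cyp51, Msmo1 and Dhcr7 were added, and Pmvk, Ebp and Lss were lost.

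Estimates that changed sign were those of Ggps1 (-0.024 to 0.10 with 1 library left out, and -0.038 without both control replicates 2 and 3) and Tm7sf2 (-0.17 to 0.039 and 0.075 in the same fits); neither was called. The cause was not tested. Depth limits Fdps most, with 6 reads in its lowest library.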
